A study of Homo sapiens with 6 samples.

Results

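The human mitochondrial genome carries 37 genes, and all of them were rows of the deposited count table: 13 protein-coding (mRNA) genes, 2 rRNA genes and 22 tRNA genes among 58735 genes in all. They were taken by their chromosome, MT, whatever their level. The cells were MCF10A, an immortalized human breast epithelial line that is not malignant, and RNA for sequencing was taken 48 hours after they were transfected. The 3 siDAB2IP libraries came from cells given siRNA against DAB2IP, a Ras GTPase-activating protein that restrains Ras and NF-κB signaling, and the 3 siControl libraries from cells given a nontargeting siRNA pool. Both groups were the same parental line and were transfected, and the labels mark siControl as WT. The labels do not say that replicates were separate cultures, so every p value measures the spread between these libraries only.

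Mitochondrial DNA is a small circle that is read on both strands. POLRMT, the mitochondrial RNA polymerase, starts with TFAM and TFB2M near the noncoding control region and copies nearly the whole circle into long precursors. The tRNA genes lie between most of the mRNA and rRNA genes, and cutting the tRNAs out at both ends, by mitochondrial RNase P and by ELAC2, frees the RNAs between them. The mRNAs encode membrane subunits of respiratory complexes I, III and IV and of ATP synthase, and the rRNAs and tRNAs serve the ribosomes inside the mitochondrion that translate them.

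The sequences of 5 tRNA genes are shown because the results turn on 3 of them, MT-TS2, MT-TL2 and MT-TY, and because serine and leucine each have a second mitochondrial tRNA, MT-TS1 and MT-TL1, with another anticodon. MT-TS2 lay at MT:12207-12265, MT-TL2 at MT:12266-12336 and MT-TL1 at MT:3230-3304, all on the plus strand of GRCh38. MT-TY lay at MT:5826-5891 and MT-TS1 at MT:7446-7514 on the minus strand. The sequences are transcript sequences of GENCODE release 29, written 5′ to 3′ as DNA, with the anticodon in capitals.
MT-TS2: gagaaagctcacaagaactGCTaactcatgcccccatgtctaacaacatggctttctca
MT-TS1: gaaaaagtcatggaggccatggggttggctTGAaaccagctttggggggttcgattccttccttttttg
MT-TL2: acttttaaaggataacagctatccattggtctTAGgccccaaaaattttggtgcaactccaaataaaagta
MT-TL1: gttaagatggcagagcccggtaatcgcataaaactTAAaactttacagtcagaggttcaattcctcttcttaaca
MT-TY: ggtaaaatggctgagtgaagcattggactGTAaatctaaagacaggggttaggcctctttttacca
MT-TS2, the shortest of the 22 tRNA genes at 59 bases, reads AGY serine codons with its anticodon GCT, and MT-TS1 reads UCN codons with TGA. MT-TL2 reads CUN leucine codons and MT-TL1 UUR leucine codons. The longest tRNA gene was MT-TL1 with 75 bases. The 22 tRNA genes had a GC content of 23.1% to 49.3%, with a median of 38.9%. In 14 of them the gene lay on the plus strand, as part of the transcript of the heavy strand, and 8 lay on the minus strand together with 1 mRNA gene, MT-ND6.

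The libraries held 16353783 to 21916062 counts each. DAB2IP was at 91.6 ± 13.1 CPM (counts scaled to a common library size, corrected by the trimmed mean of M-values, TMM; mean ± SD, n = 3) in siControl and 25.1 ± 2.57 CPM in siDAB2IP, a log2 fold change of -1.86 (SE 0.13, adjusted p = 9.71e-05, edgeR quasi-likelihood test with Benjamini-Hochberg adjustment). A gene was said to have risen or fallen in siDAB2IP when its adjusted p in this test, over the 15430 genes with enough counts, was under 0.05. All 8 basal epithelial markers were detected, and 4 of them, KRT5, KRT14, KRT17 and KRT6A, fell, as did 7.65% of all genes. The summed level of the 8 was 10006 to 12329 CPM in siControl and 6509 to 7817 CPM in siDAB2IP. Of the markers of other cell types, FOXA1 (luminal, log2 fold change 1.05) and COL1A1 (fibroblast, 0.78) rose, beside 6.55% of all genes, and KDR (endothelial, -0.93) fell. By cell type, the luminal ones (4 of 7 at 1 CPM or more) summed to 303 to 318 against 277 to 364 CPM with PGR at 0, the fibroblast ones (2 of 7) to 163 to 293 against 146 to 206 CPM, the leukocyte ones (1 of 5) to 35.9 to 69.9 against 49.5 to 77.2 CPM with CD3E at 0, and the endothelial ones (4 of 4) to 23.1 to 33.1 against 14.8 to 16.3 CPM. Whether these shifts in markers bear on the mitochondrial values was not tested.

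The share of all counts that fell on mitochondrially encoded genes did not move one way in the siDAB2IP libraries. The 37 genes took 10.9%, 10.6% and 10.9% in the siControl libraries and 10.0%, 9.59% and 12.8% in the siDAB2IP libraries. The groups overlapped, since siDAB2IP replicate 3 was above and the other 2 siDAB2IP libraries were below every siControl library. The mean was 10.8% ± 0.162 (SD, n = 3) in siControl and 10.8% ± 1.75 in siDAB2IP. The number of mitochondrial genomes per cell and the RNA made from each cannot be told apart in these bulk libraries.

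The mRNA genes made up most of these counts in every library. Of the mitochondrial counts they held 89.7%, 88.2% and 89.3% in the siControl libraries and 90.5%, 91.0% and 90.4% in the siDAB2IP libraries. The 2 rRNA genes held 9.90%, 11.4% and 10.3% in the siControl libraries and 9.01%, 8.53% and 9.13% in the siDAB2IP libraries. The 22 tRNA genes held 0.400%, 0.453% and 0.397% in the siControl libraries and 0.486%, 0.515% and 0.505% in the siDAB2IP libraries. Within the mitochondrial counts, every siDAB2IP library was thus above every siControl library for mRNA and for tRNA and below it for rRNA. The 14 tRNA genes on the plus strand, which hold a minor part of the tRNA counts, took 0.0326%, 0.0325% and 0.0319% in the siControl libraries and 0.0440%, 0.0661% and 0.0390% in the siDAB2IP libraries. These groups did not overlap either. Library selection is not given, so shares of counts need not be shares of the RNA in the cells. The class shares of mitochondrial counts sum to 100%, so they are not independent of each other. Of all counts, mRNA took 9.38% to 9.79% in siControl and 8.72% to 11.6% in siDAB2IP. The rRNA genes took 1.08% to 1.21% and 0.818% to 1.17% of all counts. Both classes overlapped between groups. The tRNA genes took 0.0434% to 0.0482% and 0.0485% to 0.0647% of all counts without overlap. Their summed CPM overlapped, at 437 to 490 and 485 to 625. Sums over chosen genes are given as descriptions with no test.

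**Figure D1:**
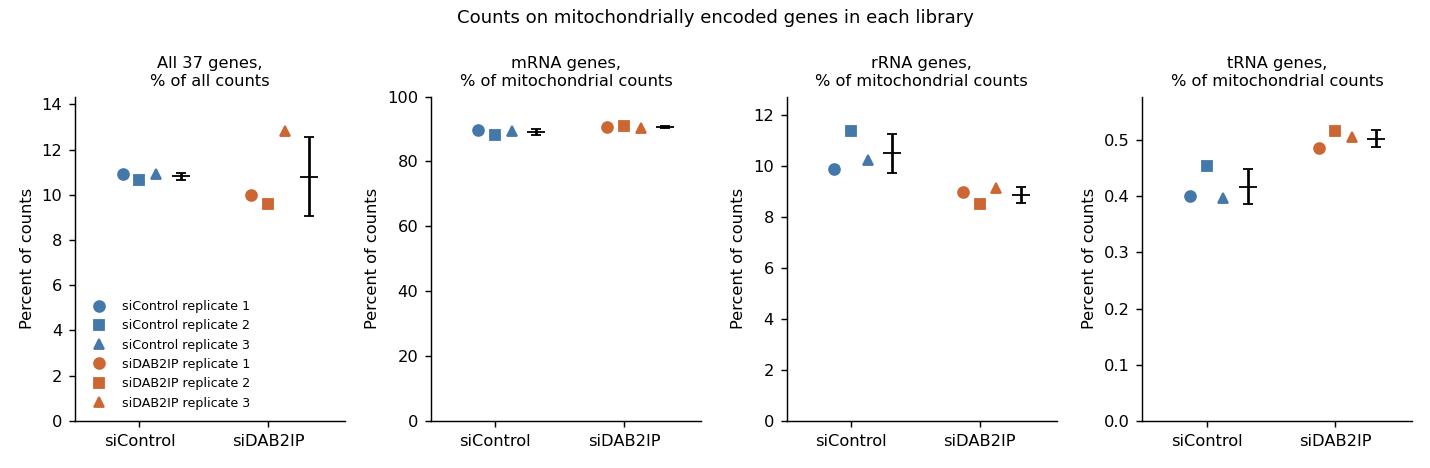
Percent of counts (vertical axes, from 0) in each library for all 37 genes together and, within the mitochondrial counts, for the mRNA, rRNA and tRNA genes, with siControl in blue, siDAB2IP in orange and the mean ± SD in black. The share of all counts overlaps between groups, with siDAB2IP replicate 3 at 12.8%. Within the mitochondrial counts, the rRNA share is lower and the tRNA share higher in each siDAB2IP library than in each siControl library.

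Levels of the genes, as counted in these libraries, differed by orders of magnitude although most share a precursor. Since library selection is not given, the order of rRNAs and mRNAs need not be that in the cells. Per length, in FPKM (fragments scaled by gene length and library size, as deposited by the authors, mean of 6 libraries), MT-CO2 was highest at 19865, followed by MT-CO1 at 18505 and MT-ATP6 at 14415. MT-CO3 at 9452 and MT-ND4 at 8819.6 came next, before MT-RNR2 at 6039.8 FPKM. The ratio of MT-CO1 to MT-CO2 in FPKM was 0.930 to 1.00 in siControl and 0.842 to 1.05 in siDAB2IP, so the order of these neighbours differed between libraries. MT-ND4L at 5690.1 and MT-CYB at 5473 were followed by MT-ND2 at 4001, MT-ND3 at 3831 and MT-ND6 at 3798 FPKM, and then by MT-ND5 at 3216 and MT-ND1 at 3138 FPKM. MT-ATP8 at 2099 FPKM was the lowest of the mRNA genes. The reading frames of MT-ATP8 and MT-ATP6 overlap, as do those of MT-ND4L and MT-ND4. Values of such genes need not be levels of separate RNAs. MT-RNR1, the small rRNA, stood at 1039.9 FPKM, and the large rRNA MT-RNR2 was 5.06 to 6.57 times as high in siControl and 5.62 to 6.17 times in siDAB2IP.

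**Figure D2:**
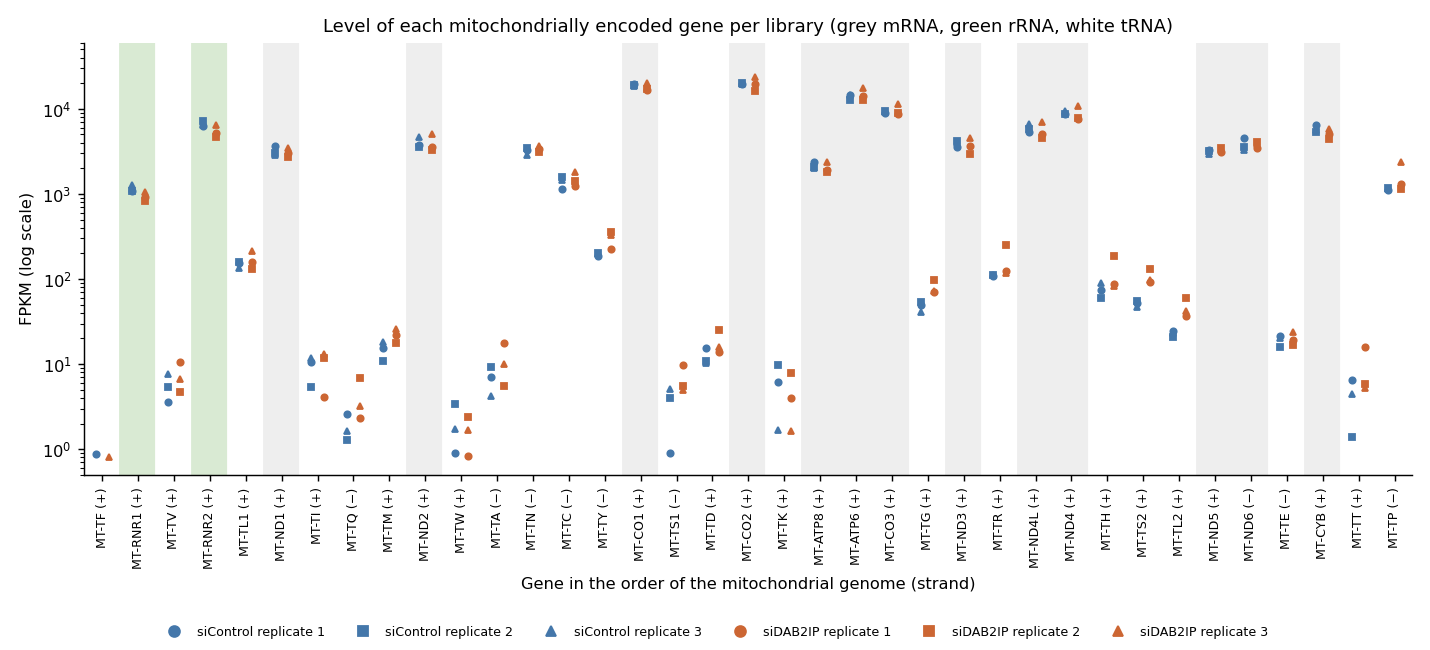
FPKM (log scale) of each of the 37 genes in the order of the mitochondrial genome, with the strand in parentheses and siControl libraries in blue on the left and siDAB2IP libraries in orange on the right of each gene. A value of 0 is not drawn. The mRNA means run from 2099 FPKM (MT-ATP8) to 19865 FPKM (MT-CO2), whereas tRNA genes run from below 1 FPKM (MT-TF) to 3286 FPKM (MT-TN, mean).

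The tRNA genes covered the widest range. MT-TN, the asparagine tRNA, was highest with a mean of 4355 counts and 3286 FPKM, followed by MT-TC at 1441 and MT-TP at 1381 FPKM. MT-TF, the phenylalanine tRNA, was lowest with 1, 0 and 0 counts in the siControl libraries and 0, 0 and 1 counts in the siDAB2IP libraries. MT-TN and MT-TC face each other across 31 bases that hold the origin of light-strand replication, and MT-TP borders the noncoding control region, where the next gene is 1122 bases away. Most other tRNA genes touch their neighbours or lie within a few bases of them. A tRNA gene is shorter than the paired reads used, and how reads reaching into a neighbouring gene were counted is not given in the sources used here. A count on a tRNA gene may therefore hold precursor RNA beside or instead of mature tRNA. How much of it is mature tRNA was not tested, and values named by a tRNA below are counts on its gene. The filter on low counts kept 15 of the 22 tRNA genes. MT-TF, MT-TV, MT-TQ, MT-TW, MT-TS1, MT-TK and MT-TT were left out, with mean counts of 0.333 to 8.

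None of the 13 mRNA genes passed the test in either direction. Over the 15430 genes tested, 6.55% rose and 7.65% fell. The log2 fold changes of the 13 ran from -0.18 for MT-CYB to 0.10 for MT-ATP6 with a median of -0.02, beside a median of 0.01 over all genes tested, and 6 were positive. No mRNA passed at an unadjusted p under 0.05, none was called under any of the 18 alternative settings, DESeq2 and limma among them, and in none of the 13 were the groups separate.

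Of the complex I subunits, MT-ND1 was at 3565, 2902 and 2754 CPM in the siControl libraries and 2944, 2653 and 3362 CPM in the siDAB2IP libraries. MT-ND2 was at 3981, 3763 and 4861 CPM in the siControl libraries and 3765, 3508 and 5387 CPM in the siDAB2IP libraries. MT-ND3 was at 1243, 1464 and 1403 CPM in the siControl libraries and 1270.0, 1045 and 1606 CPM in the siDAB2IP libraries. In MT-ND2 and MT-ND3 siDAB2IP replicate 3 was the highest and siDAB2IP replicate 2 the lowest of the 6 libraries, so that the siDAB2IP libraries lay on both sides of the controls. MT-ND4L was at 1586, 1728 and 1982 CPM in the siControl libraries and 1502, 1355 and 2087 CPM in the siDAB2IP libraries. MT-ND4, whose reading frame overlaps that of MT-ND4L by 7 bases, was at 12075, 11934 and 13102 CPM in the siControl libraries and 10452, 11011 and 15082 CPM in the siDAB2IP libraries. Both had siDAB2IP replicate 3 on top and the other siDAB2IP libraries below all controls. MT-ND5 was at 6011, 5759 and 5348 CPM in the siControl libraries and 5704, 6395 and 6103 CPM in the siDAB2IP libraries. MT-ND6, the only mRNA encoded on the minus strand, was at 2408, 1882 and 1721 CPM in the siControl libraries and 1841, 2169 and 2063 CPM in the siDAB2IP libraries. In both the groups overlapped, and siDAB2IP replicate 3 was not the highest library. The log2 fold changes of the 7 complex I mRNAs ran from -0.10 for MT-ND4L to 0.09 for MT-ND5. The ratio of MT-ND6 to MT-ND5 in FPKM was 1.11 to 1.38 in siControl and 1.11 to 1.17 in siDAB2IP. Whether counting used the strand of the reads is not given, and without it RNA antisense to MT-ND6 would count as MT-ND6. The same holds for the tRNA genes, MT-TY among them.

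MT-CYB, the complex III subunit cytochrome b, was at 7422, 6116 and 6592 CPM in the siControl libraries and 5799.7, 5172 and 6743 CPM in the siDAB2IP libraries. Its log2 fold change was -0.18 (SE 0.16, adjusted p = 0.474), with siDAB2IP replicate 3 inside the control range and the other 2 below it. Of the catalytic core of complex IV, MT-CO1 was at 30447, 29270.3 and 29129.7 CPM in the siControl libraries and 26292, 26619.9 and 31161 CPM in the siDAB2IP libraries. MT-CO2 was at 13451, 13965 and 13578 CPM in the siControl libraries and 13663, 11264 and 16421 CPM in the siDAB2IP libraries. MT-CO3 was at 7113, 7405 and 7349 CPM in the siControl libraries and 6904, 7050.1 and 9088 CPM in the siDAB2IP libraries. All 3 had their highest value in siDAB2IP replicate 3, and their log2 fold changes were -0.08, 0.01 and 0.08. Of the ATP synthase subunits, MT-ATP8 was at 490.5, 435 and 424 CPM in the siControl libraries and 403, 383 and 498 CPM in the siDAB2IP libraries. MT-ATP6 was at 9946, 8795 and 9973 CPM in the siControl libraries and 9814, 8758 and 12211 CPM in the siDAB2IP libraries. The 2 reading frames overlap by 46 bases, so reads there could belong to either gene. Their log2 fold changes were -0.07 (SE 0.13) and 0.10 (SE 0.17), with overlapping groups. Within the mitochondrial counts, the 2 ATP synthase mRNAs held 9.39%, 8.53% and 9.46% in the siControl libraries and 10.2%, 9.51% and 10.3% in the siDAB2IP libraries. These shares did not overlap, although neither gene passed the test. The shares of the complex I mRNAs (27.2% to 28.4% in siControl and 27.5% to 29.3% in siDAB2IP), of MT-CYB (5.65% to 6.67% and 5.38% to 5.81%) and of the complex IV mRNAs (45.5% to 46.8% and 45.8% to 46.9%) overlapped between groups.

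The mRNA genes of this genome leave little room for their own stop codons. In 6 of the 13 the annotated length was not a multiple of 3, and of these 5 ended in T alone (MT-ND2, MT-CO3, MT-ND3, MT-ND4 and MT-CYB) and 1 in TA (MT-ND1). Polyadenylation is known to complete such stop codons after cutting. The log2 fold changes of these 6 ran from -0.18 to 0.08 and those of the other 7 from -0.10 to 0.10.

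The rRNAs were lower on average in siDAB2IP and did not pass the test with all libraries. MT-RNR1, the 12S rRNA of the small ribosomal subunit, was at 1055, 1049 and 1217 CPM in the siControl libraries and 883, 789 and 1019 CPM in the siDAB2IP libraries. Every siDAB2IP library was below every siControl library, as for 18.3% of all genes tested, and the log2 fold change was -0.30 (SE 0.13, adjusted p = 0.153). MT-RNR2, the 16S rRNA of the large subunit, was at 9949, 11254 and 10062 CPM in the siControl libraries and 8108, 7406 and 10274 CPM in the siDAB2IP libraries. Here siDAB2IP replicate 3 lay inside the control range, and the log2 fold change was -0.28 (SE 0.17, adjusted p = 0.300). Without siDAB2IP replicate 3 both rRNAs fell, MT-RNR1 by 0.40 (adjusted p = 0.0278) and MT-RNR2 by 0.43 (adjusted p = 0.0275) on the log2 scale. Relative to the summed mitochondrial mRNAs the changes were -0.28 (adjusted p = 0.343) and -0.27 (adjusted p = 0.438). The ratio of rRNA to mRNA counts was 0.110, 0.129 and 0.115 in siControl and 0.0995, 0.0938 and 0.101 in siDAB2IP, without overlap.

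The tRNAs were the one class with genes past the test. Of the 15 tested, 3 rose (MT-TS2, MT-TL2 and MT-TY) and 0 fell, which is 20.0% risen beside 6.55% of all genes. The other 12 did not pass. All 15 estimates were positive, with a median log2 fold change of 0.59. With no filter on low counts, 7 of the 22 rose, beside 1245 of 29567 genes, and the median was 0.57. That edgeR fit gave DAB2IP an adjusted p of 3.30e-42 against 9.71e-05 with the filter, so its calls are not on a par with the others. In 5 of the 15 every siDAB2IP library was above every siControl library, as for 17.6% of all genes tested.

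MT-TS2, a serine tRNA, was at 3.12, 3.25 and 2.76 CPM in the siControl libraries and 5.47, 7.86 and 5.74 CPM in the siDAB2IP libraries. MT-TL2, a leucine tRNA, was at 1.74, 1.49 and 1.64 CPM in the siControl libraries and 2.65, 4.26 and 3.01 CPM in the siDAB2IP libraries. Each siDAB2IP library lay above each control in both genes, with siDAB2IP replicate 2 highest, at low absolute counts (means of 84.2 and 44.0 reads). The log2 fold changes were 1.06 (SE 0.22, adjusted p = 0.0127) for MT-TS2 and 1.03 (SE 0.27, adjusted p = 0.0332) for MT-TL2. With 3 libraries against 3, an exact two-sided permutation test of a single gene cannot go below p = 0.1, the value for both. MT-TY, the tyrosine tRNA, was at 12.3, 13.3 and 13.1 CPM in the siControl libraries and 15.0, 23.5 and 22.1 CPM in the siDAB2IP libraries. Its controls lay close together, siDAB2IP replicate 1 was just above them and the other siDAB2IP libraries were well above. Its log2 fold change was 0.65 (SE 0.18, adjusted p = 0.0368). MT-TY lies on the minus strand, and with the strand setting not given its count may hold RNA of the opposite strand.

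Leaving out 1 library ended some of these calls while the log2 fold changes stayed positive. MT-TS2 missed the threshold without siControl replicate 2 (1.10, adjusted p = 0.0531) and without siControl replicate 3 (0.98, adjusted p = 0.0527), and passed when any other library was left out. MT-TL2 missed it without siControl replicate 1, 2 or 3 (1.06, 0.95 and 1.02, adjusted p = 0.0824, 0.140 and 0.0965) and without siDAB2IP replicate 2 (0.80, adjusted p = 0.102). MT-TY missed it without siControl replicate 1, 2 or 3 (0.59, 0.66 and 0.64, adjusted p = 0.124, 0.123 and 0.108) and without siDAB2IP replicate 2 (0.52, adjusted p = 0.103). Over all genes, the number that rose was also lower without siControl replicate 1, 2 or 3, at 434, 264 and 398 against 1011. Relative to the summed mitochondrial mRNAs, MT-TS2 passed at 1.10 (adjusted p = 0.0323), and MT-TL2 at 1.07 (adjusted p = 0.0608) and MT-TY at 0.67 (adjusted p = 0.0741) did not.

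MT-TH, the histidine tRNA, lies end to end with MT-TS2 and MT-TL2 between MT-ND4 and MT-ND5. It was at 5.23, 4.13 and 6.34 CPM in the siControl libraries and 6.09, 12.96 and 5.74 CPM in the siDAB2IP libraries. Only siDAB2IP replicate 2 left the control range, and the log2 fold change was 0.66 (SE 0.32, adjusted p = 0.193). The flanking mRNAs MT-ND4 and MT-ND5 had log2 fold changes of -0.02 and 0.09. MT-TG, the glycine tRNA between MT-CO3 and MT-ND3, was at 3.36, 3.67 and 2.82 CPM in the siControl libraries and 4.80, 6.70 and 4.93 CPM in the siDAB2IP libraries. Its siDAB2IP libraries were all above the controls at a log2 fold change of 0.73 (SE 0.22, adjusted p = 0.0539). MT-TG passed in 6 of 18 alternatives. In edgeR these were the replicate number as a block (adjusted p = 0.0278), no siDAB2IP replicate 3 (0.0371), library size only (0.0434) and no filter (0.0364). The others were limma on log2(FPKM + 1) and log2(FPKM + 0.1) with a filter (adjusted p = 0.0329 and 0.0347). MT-TR, the arginine tRNA between MT-ND3 and MT-ND4L, was at 7.10, 7.24 and 7.34 CPM in the siControl libraries and 8.18, 16.4 and 7.77 CPM in the siDAB2IP libraries. Its siDAB2IP replicate 2 was far above the rest, the other siDAB2IP libraries were just above the controls, and the log2 fold change was 0.58 (SE 0.27, adjusted p = 0.185).

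**Figure D3:**
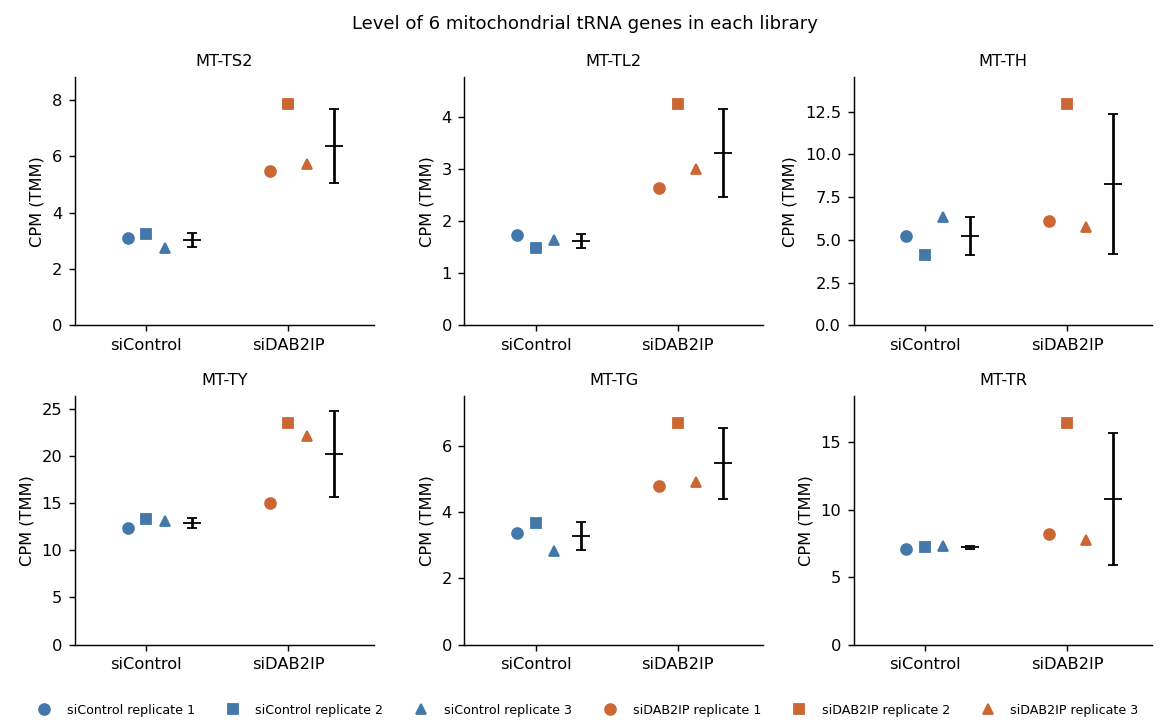
CPM (TMM scaled, vertical axes from 0) of 6 tRNA genes in each library, with siControl in blue, siDAB2IP in orange, the replicate number as the symbol and the mean ± SD in black. MT-TS2, MT-TL2, MT-TY, MT-TG and MT-TR are higher in each siDAB2IP library than in each control, MT-TH is not, and siDAB2IP replicate 2 is the highest library in all 6.

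The 3 tRNAs with the most counts did not pass the test. MT-TN was at 241, 254 and 211 CPM in the siControl libraries and 248, 232 and 267 CPM in the siDAB2IP libraries. MT-TC, the cysteine tRNA, was at 76.6, 105 and 96.5 CPM in the siControl libraries and 83.3, 94.8 and 119.8 CPM in the siDAB2IP libraries. Their groups overlapped, with log2 fold changes of 0.08 (SE 0.11) and 0.10 (SE 0.15). MT-TP, the proline tRNA, was at 75.8, 79.9 and 79.6 CPM in the siControl libraries and 90.8, 78.6 and 164 CPM in the siDAB2IP libraries. Its estimate of 0.50 (SE 0.23, adjusted p = 0.170) rested on siDAB2IP replicate 3 and was 0.11 without that library. MT-TL1, the other leucine tRNA, was at 11.6, 12.1 and 10.3 CPM in the siControl libraries and 11.8, 10.1 and 16.2 CPM in the siDAB2IP libraries. Its log2 fold change was 0.16 (SE 0.19, adjusted p = 0.617). The groups overlapped, unlike those of MT-TL2; the difference between the 2 leucine tRNAs was not tested. MT-TS1, the other serine tRNA, was too low to test, with 1, 6 and 6 counts in the siControl libraries and 12, 7 and 6 counts in the siDAB2IP libraries.

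The remaining 5 tested tRNAs had mean counts of 11.3 to 24.3, and their groups overlapped. They were MT-TM at a log2 fold change of 0.59 (SE 0.33, adjusted p = 0.271), MT-TD at 0.60 (SE 0.37, adjusted p = 0.314), MT-TA at 0.66 (SE 0.52, adjusted p = 0.438), MT-TI at 0.10 (SE 0.51, adjusted p = 0.924) and MT-TE at 0.07 (SE 0.31, adjusted p = 0.910). By the strand of the gene, 2 of the 9 tested tRNAs on the plus strand rose, with a median of 0.60. On the minus strand 1 of the 6 rose, with a median of 0.30, beside 6.55% of all genes. A difference between strands was not tested, and with the strand setting not given a count need not come from the strand of its gene.

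**Figure D4:**
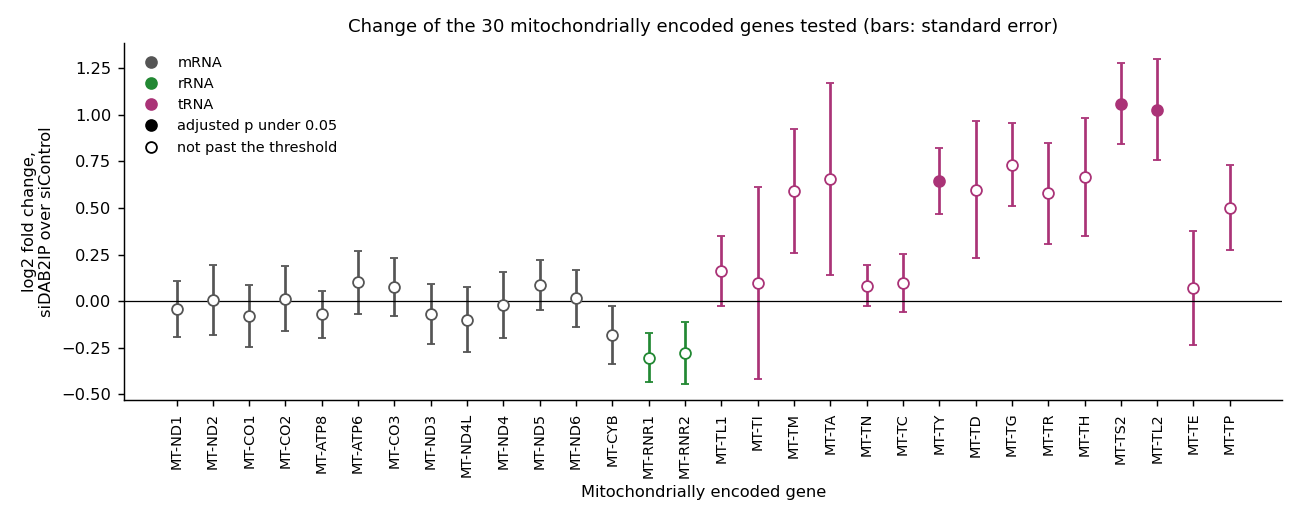
Log2 fold change (siDAB2IP over siControl, vertical axis) with its standard error for the 30 mitochondrially encoded genes tested, grouped as mRNA, rRNA and tRNA, with filled points past the threshold. The mRNAs lie between -0.18 and 0.10, both rRNAs are below 0, and all 15 tRNAs are above 0, with MT-TS2, MT-TL2 and MT-TY past the threshold.

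Copies of mitochondrial DNA in the nuclear genome can take up reads of the same sequence. Of 407 such copies in the table, 355 had no count in any library and 7 had enough counts to be tested, of which none rose or fell, nor did any of the 6 named here under an alternative setting. MTATP6P1, an unprocessed pseudogene of the same length as MT-ATP6 (681 bases), was at 570.2, 509 and 513 CPM in the siControl libraries and 477, 444 and 576 CPM in the siDAB2IP libraries. MTCO1P12 was at 108, 94.9 and 83.1 CPM in the siControl libraries and 95.8, 87.6 and 96.7 CPM in the siDAB2IP libraries, and MTND2P28 at 28.9, 28.4 and 29.6 CPM in the siControl libraries and 23.6, 23.0 and 37.1 CPM in the siDAB2IP libraries. As in many mitochondrial mRNAs, siDAB2IP replicate 3 was the highest library in MTATP6P1 and MTND2P28. MTCO2P12, MTCO3P12 and MTND1P23 had means of 9.09, 3.72 and 1.42 CPM. These 6 lie in 1 block of chromosome 1, from 629062 to 634922 on the plus strand of GRCh38, and their counts and those of the mitochondrial genes they resemble are uncertain to that extent.

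Nuclear genes that serve mitochondrial transcription, RNA processing, translation, respiration and biogenesis were examined beside them. Over all 272 tested genes of 10 such groups, 20 rose (7.35%) and 6 fell (2.21%), beside 6.55% and 7.65% of all genes, with a median log2 fold change of 0.10. With the replicate number as a block 34 rose and 11 fell. Without siControl replicate 1, 2 or 3 only 2, 1 and 2 rose, and without siDAB2IP replicate 1, 2 or 3 it was 6, 9 and 30. TFAM, MRPS27, CARS2, PPARGC1A and GABPB1 passed whichever library was left out. Of the other genes named below as risen or fallen, FASTKD5 passed in 5 of those 6 fits and POLRMT in 3, and the rest passed in 0 to 3 of them, with adjusted p of up to 0.209. The value after each gene is its log2 fold change.

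Of 28 genes for transcription and replication of mitochondrial DNA, 2 rose and 1 fell, with a median of 0.06. TFAM, which packages mitochondrial DNA and starts its transcription, was at 62.2, 60.2 and 51.4 CPM in the siControl libraries and 39.4, 39.3 and 31.4 CPM in the siDAB2IP libraries. All siDAB2IP libraries were lower, and the log2 fold change was -0.66 (SE 0.12, adjusted p = 0.00894). POLRMT was at 129, 134 and 155 CPM in the siControl libraries and 174, 205 and 201 CPM in the siDAB2IP libraries. It was higher in every siDAB2IP library, at 0.47 (SE 0.11, adjusted p = 0.0217), and missed the threshold without siControl replicate 1 or 2 or siDAB2IP replicate 2 (adjusted p = 0.0906, 0.118 and 0.0620). TFB1M, which methylates the 12S rRNA, rose at 0.54 (SE 0.16, adjusted p = 0.0451). TFB2M overlapped between groups, at 0.23 (SE 0.12, adjusted p = 0.258).

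Of 24 genes for RNA processing, stability and decay, 1 rose and 2 fell, with a median of 0.14. FASTKD5, which is needed to process mitochondrial mRNAs that no tRNA flanks, was at 31.7, 37.5 and 35.3 CPM in the siControl libraries and 25.0, 21.8 and 19.4 CPM in the siDAB2IP libraries. It fell, at -0.66 (SE 0.13, adjusted p = 0.0110), and missed the threshold without siControl replicate 2 (adjusted p = 0.0578). It shares bases with UBOX5 on the same strand, which limits how its reads can be assigned. GRSF1, an RNA-binding protein of mitochondrial RNA granules, fell at -0.33 (SE 0.10, adjusted p = 0.0478), and PNPT1, the polynucleotide phosphorylase that degrades mitochondrial RNA, rose at 0.34 (SE 0.09, adjusted p = 0.0413). LRPPRC, which stabilizes mitochondrial mRNAs, and its partner SLIRP overlapped between groups, at 0.01 (SE 0.10, adjusted p = 0.961) and -0.05 (SE 0.13, adjusted p = 0.842). ELAC2, TRMT10C and HSD17B10, which take part in cutting out the tRNAs and were picked after their values were seen, had log2 fold changes of 0.24, 0.34 and 0.39 and did not pass (adjusted p = 0.126, 0.0771 and 0.0972). KIAA0391, a further subunit of mitochondrial RNase P in this group, did not pass either. A link between these genes and the tRNA values was not tested.

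Of 81 mitochondrial ribosomal proteins, 8 rose and 1 fell, with a median of 0.11. MRPS27, a small-subunit protein, was at 94.5, 98.7 and 86.9 CPM in the siControl libraries and 46.3, 47.5 and 30.8 CPM in the siDAB2IP libraries. All siDAB2IP libraries were lower, at -1.17 (SE 0.15, adjusted p = 0.00205). It overlaps PTCD2 on the other strand. MRPS12 rose at 0.52 (SE 0.12, adjusted p = 0.0172), MRPL52 at 0.41 (SE 0.10, adjusted p = 0.0206) and DAP3 at 0.38 (SE 0.09, adjusted p = 0.0229). MRPS12 overlaps SARS2, and DAP3 overlaps YY1AP1, both on the other strand.

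Of 44 genes for tRNA charging, tRNA modification and translation, 5 rose and 1 fell, with a median of 0.12. CARS2, which charges the cysteine tRNA, was at 139, 136 and 148 CPM in the siControl libraries and 98.9, 104 and 102 CPM in the siDAB2IP libraries. It was lower in every siDAB2IP library, at -0.47 (SE 0.09, adjusted p = 0.00893). The proline, valine and threonine synthetases PARS2, VARS2 and TARS2 rose at 0.75 (SE 0.18, adjusted p = 0.0212), 0.37 (SE 0.09, adjusted p = 0.0221) and 0.35 (SE 0.09, adjusted p = 0.0291). CARS2 overlaps ING1 on the other strand. VARS2 overlaps GTF2H4 on the same strand, which limits how its reads can be assigned. The synthetases for the 3 tRNAs that rose, picked for that reason after the values were seen, did not pass: SARS2 at -0.24 (SE 0.20, adjusted p = 0.473), LARS2 at -0.16 (SE 0.11, adjusted p = 0.400) and YARS2 at 0.18 (SE 0.11, adjusted p = 0.314).

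The nuclear partners of the mitochondrially encoded respiratory subunits were mostly above 0. Of 81 nuclear-encoded subunits, 3 rose and 0 fell (1 at an unadjusted p under 0.05), beside 6.55% and 7.65% of all genes. Among the subunits 63 were positive, beside 7884 of the 15430 genes tested. Their median log2 fold change was 0.11, beside -0.02 for the 13 mitochondrial mRNA genes and 0.01 for all genes tested. Each library's median log2 CPM against the control mean overlapped between groups in complexes I and II and ATP synthase. It did not overlap in complexes III and IV. Complex I had 2 risen of 37, NDUFS8 at 0.38 (SE 0.10, adjusted p = 0.0341) and NDUFA2 at 0.40 (SE 0.12, adjusted p = 0.0497), the latter overlapping IK and TMCO6. ATP synthase had 1 of 18, ATP5F1D at 0.30 (SE 0.09, adjusted p = 0.0469). Complexes II, III and IV had none of 4, 10 and 12, with 0, 1 and 2 at an unadjusted p under 0.05. Complex III and cytochrome c had the highest median, 0.16.

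Of 14 tested regulators of mitochondrial biogenesis, 1 rose and 1 fell, with a median of -0.11. PPARGC1A, the coactivator PGC-1α, was at 8.10, 9.61 and 9.81 CPM in the siControl libraries and 2.71, 2.82 and 3.65 CPM in the siDAB2IP libraries. It was lower in every siDAB2IP library, at -1.58 (SE 0.20, adjusted p = 0.00160). GABPB1, a subunit of the factor NRF-2, was at 11.2, 12.2 and 12.2 CPM in the siControl libraries and 18.1, 23.8 and 24.5 CPM in the siDAB2IP libraries. It rose at 0.90 (SE 0.15, adjusted p = 0.00541). It overlaps its antisense gene GABPB1-AS1 and, on the same strand, GABPB1-IT1, which limits how its reads can be assigned. Of 16 noncoding RNAs listed as abundant outside the mitochondrion, 6 had enough counts to test. Of these 6, 0 rose and 0 fell in edgeR, with 1 past an unadjusted p under 0.05. Their log2 fold changes ran from -0.64 to 0.50 with a median of 0.04, beside 0.59 for the mitochondrial tRNAs. The list was not matched to the tRNAs, and its median ran from -0.25 to 0.13 between siControl libraries (log2 CPM against the control mean).

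**Figure D5:**
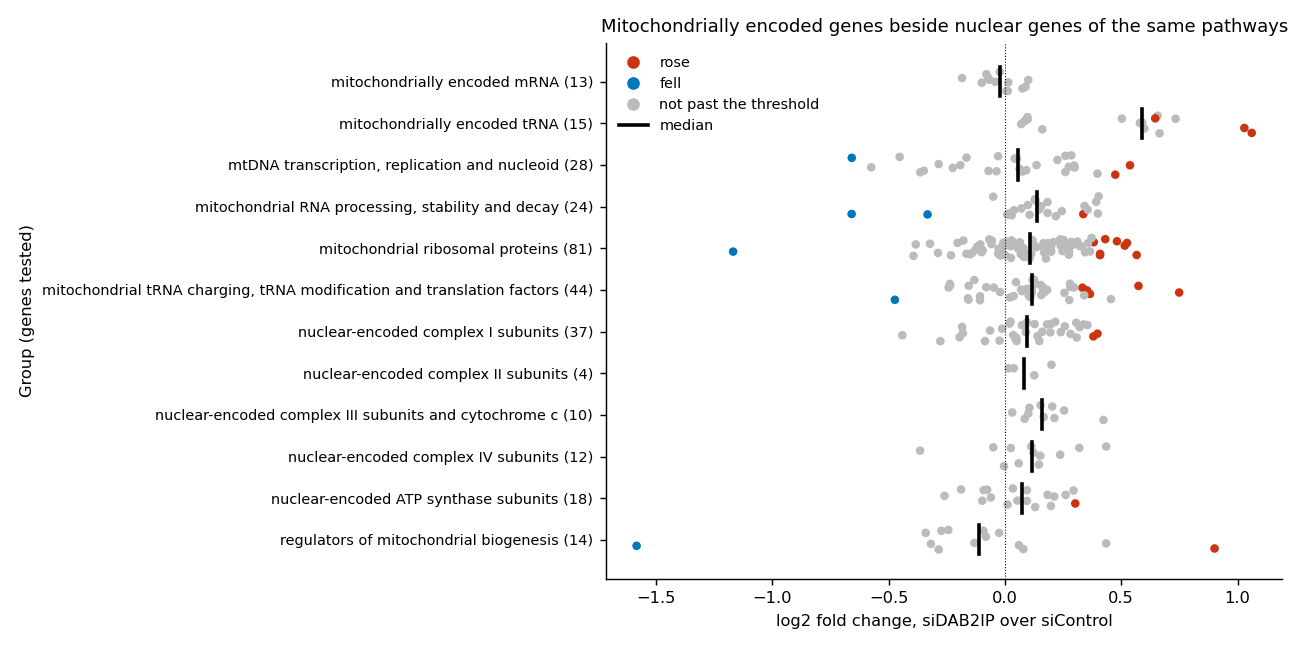
Log2 fold change (siDAB2IP over siControl, horizontal axis) of every tested gene in each group (rows, with the number tested), red where it rose, blue where it fell and grey where it did not pass, with the group's median as a black bar. Mitochondrially encoded mRNAs sit around -0.02 and tRNAs around 0.59, and most nuclear groups have medians of 0.06 to 0.16 with few genes past the threshold.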

How the data were processed

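RNA of 6 MCF10A samples was sequenced. Per the labels, the submitters' processing notes name STAR 2.6.1d, featureCounts 1.5.0-p3, DESeq2 1.20.0, edgeR 3.24.3 and the build hg38, and library selection and the strand setting are not given in the sources used here. The deposited values are read counts per gene, not normalized, and FPKM that the authors computed from them. The members matched GENCODE release 29 in position and strand (37 of 37), and scaling by gene length placed the total behind each library's FPKM at 98.9% to 104.7% of its total count. Groups were taken from the labels.

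Counts were tested with the edgeR 4.0.16 quasi-likelihood test in R 4.3.3 after filterByExpr and TMM scaling (15430 genes, common biological coefficient of variation 14.8%), with Benjamini-Hochberg adjustment over all of them. The script was tested on simulated data. Depth was 16353783 to 21916062 counts, and a gene at 0 in a library could lie below 0.137 to 0.183 CPM (3 counts, counting error only).

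All 37 genes are named or counted. Of each nuclear group, the genes past the threshold with the 3 smallest p in each direction are named, and always POLRMT, TFAM, TFB2M, LRPPRC and SLIRP, and up to 6 nuclear copies with a mean of at least 1 CPM. The members and the lists were chosen with earlier results of these data known. Libraries with the same replicate number deviated together from their group means (correlations across genes of 0.26, 0.15 and 0.25, against -0.28 to 0.02 for different numbers), which meets the rule used here for pairing. Since deviations were taken from each group's own mean, the values for same and for different numbers are not independent of each other. The values reported come from the fit without a block, and the pairing enters only the alternative with the replicate number as a block (1479 genes rose and 1754 fell). Any pairing is read from the data, since the labels do not say what a number marks. Alternatives were other scalings and filters, DESeq2 1.42.0, limma 3.58.1 on log2(FPKM + 1) and log2(FPKM + 0.1), a stricter threshold, the replicate block and leaving out each library.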

Additional observations from a re-analysis of the deposited data

How the results depend on the processing

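No mitochondrial mRNA rose or fell under any alternative, and no mitochondrial tRNA fell. The number of tRNAs that rose, 3 of 15, was 1 relative to the summed mitochondrial mRNAs, 7 of 22 with no filter on low counts, 1 with limma on log2(FPKM + 1) without a filter and 0 at an adjusted p under 0.01. The fits with no filter tested more genes (29567 against 15430), of which 1245 rose with edgeR and 176 with limma. The cause of these differences in the number of tRNAs was not tested. Without 1 library it was 0 to 4 (0 without siControl replicate 2 or 3, 1 without siControl replicate 1 or siDAB2IP replicate 2), and the number of rRNAs that fell was 0 to 2. MT-TS2 passed in 15 of 18 alternatives at 0.88 to 1.16, MT-TL2 in 11 at 0.80 to 1.17 and MT-TY in 9 at 0.52 to 0.82. MT-TG passed in 6 of them. With limma on log2(FPKM + 1) and log2(FPKM + 0.1) with a filter, MT-TG passed and MT-TY did not (adjusted p = 0.0612 and 0.0631 for MT-TY). With the replicate block MT-TG also passed (adjusted p = 0.0278), and no other mitochondrial call changed.

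Over all genes, 659 rose and 758 fell with limma on log2(FPKM + 0.1), 176 and 202 with limma on log2(FPKM + 1) without a filter, and 254 and 368 at an adjusted p under 0.01. Without 1 library, 264 to 1172 rose and 459 to 1352 fell, with the lowest numbers without siControl replicate 2. Of the nuclear mitochondrial genes, 13 and 12 rose with limma on log2(FPKM + 1) and log2(FPKM + 0.1), 1 rose and 2 fell with limma without a filter, 1 rose at an adjusted p under 0.01, and 34 rose and 11 fell with the replicate block; without 1 library 1 to 30 rose and 4 to 6 fell. No scaling moved the median of all genes beyond 0.05.

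Small uncalled changes turned their sign. With library size only, MT-ND4 was at 0.0187 and MTCO1P12 at 0.0068. With no filter, LRPPRC was at -0.0016, MT-CO2 at -0.000500 and MT-ND2 at -0.0065. With at least 10 counts in every library, LRPPRC was at -0.0032 and MT-ND2 at -0.0036. With limma, MT-CO2 was at -0.0074 and MT-ND2 at -0.0143 in all 3 fits, and MT-TI at -0.0111 with log2(FPKM + 1) and -0.0246 with log2(FPKM + 0.1). With the replicate block, MT-CO2 was at -0.0043 and MT-ND2 at -0.0113. Without 1 library the log2 fold changes that crossed 0 were LRPPRC -0.0621 to 0.0338, MT-ATP6 -0.0432 to 0.20, MT-ATP8 -0.19 to 0.00216, MT-CO2 -0.13 to 0.14, MT-CO3 -0.0626 to 0.15, MT-ND1 -0.14 to 0.0573, MT-ND2 -0.21 to 0.12, MT-ND3 -0.24 to 0.0696, MT-ND4 -0.20 to 0.0759, MT-ND4L -0.31 to 0.0231, MT-ND6 -0.0986 to 0.15, MT-TC -0.0603 to 0.21, MT-TE -0.0795 to 0.19, MT-TI -0.22 to 0.46, MT-TL1 -0.051 to 0.30, MT-TN -0.0064 to 0.13, MTCO1P12 -0.14 to 0.047, MTCO2P12 -0.13 to 0.27, MTCO3P12 -0.34 to 0.25, MTND1P23 -0.0995 to 0.56, MTND2P28 -0.32 to 0.0652 and SLIRP -0.18 to 0.015.

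Depth limits the low tRNAs: 7 of 22 had too few counts to test, and 5 of the 15 tested had mean counts under 25.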
